A study of Sus scrofa with 18 samples.

Results

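The genes examined here are 9 genes of cell division and DNA replication, TOP2A, CCNB1, UBE2C, NUSAP1, PCNA, CKS2, MCM4, BIRC5 and DEPDC1B, measured in the endometrium of pregnant pigs. Every probe set of the array that carries 1 of these symbols in the platform annotation was taken, which gave 11 of the 24123 probe sets and covered 8 of the 9 genes. DEPDC1B has no probe set under that symbol. The annotation used by the study itself names 3 more probe sets, 1 each for DEPDC1B, MCM4 and BIRC5, and these are described separately.

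The study asked how gene expression in the endometrium, the lining of the uterus, differs between gestational days in the prolific Chinese Meishan breed and the less prolific Yorkshire breed. Meishan and Yorkshire gilts (females in their first pregnancy) were mated to boars of their own breed and sampled on gestational day 15 (GD15), GD26 or GD50, which gave 6 groups: Meishan GD15, Meishan GD26, Meishan GD50, Yorkshire GD15, Yorkshire GD26 and Yorkshire GD50. The labels name no treatment. Each group has 3 Affymetrix porcine arrays, 18 in all, and each array was hybridised with a pool of RNA from 1 conceptus attachment site of each of the same 2 gilts. The 3 arrays of a group are therefore sites of the same animals, so the p-values below rest on the variation among site pools and say nothing about variation among animals.

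Cells that divide copy their DNA in S phase and separate the copies in mitosis, and many genes of both steps are transcribed only in cycling cells. For this reason their RNA is widely used as a sign of how many cells of a tissue are proliferating. In early pregnancy the pig uterus grows and remodels while the trophoblast, the outer layer of the conceptus, attaches to the uterine epithelium and the placenta forms. In a bulk sample, fewer cycling cells and less RNA of these genes per cell cannot be told apart.

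Values are the deposited log2 intensities. An intensity of 100, which is 6.64 on the log2 scale, was taken as the limit of detection, and a value under it is called not detected here. A probe set was tested where its intensity was above 100 in at least 6 of the 18 arrays, which holds for 9320 probe sets and for 6 of the 11 member probe sets, 1 each for TOP2A, CCNB1, UBE2C, NUSAP1, PCNA and CKS2. Of the other 5, the BIRC5 probe set was above 100 in 5 arrays, and the second probe sets of UBE2C and NUSAP1 and both platform probe sets of MCM4 were above 100 in 0 of the 18. The words rose and fell are kept for probe sets with a limma adjusted p (Benjamini-Hochberg, over all 9320) under 0.05. Errors of differences are standard errors, and errors of group means are SD with n = 3.

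The arrays of Yorkshire GD26 and Yorkshire GD50 stood apart from the others. Over the 9320 probe sets their medians were 7.78 to 8.13, against 8.31 to 8.40 in the other 12 arrays, and they had 7131 to 8036 probe sets above 100 against 8373 to 8743. Their hybridization controls averaged 11.71 to 13.67, against at most 11.33 in the others. The median change of all probe sets was accordingly -0.47 from GD15 to GD26 in Yorkshire, and the median breed difference was -0.42 on GD26 and -0.46 on GD50, so comparisons that include these arrays are also given with each array centred on its median. In the tissue check, epithelial markers (EPCAM, CDH1 and keratins) were well detected in all groups, 8 or 9 of the 9 on every array of a group. The endometrial secretory products ACP5, SPP1 and RBP4 were bright, while the receptor genes PGR and ESR1, named by the platform annotation, were under 100 in the mean of every group. The study, with its own annotation, counts ESR1 among the genes with high expression on GD15 in both breeds. The low platform values therefore do not show that ESR1 was absent.

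Mean expression was highest on GD26 in both breeds for TOP2A, CCNB1, UBE2C, NUSAP1 and PCNA, and that of CKS2 was lowest. The CKS2 steps passed the test in Yorkshire only, and the PCNA fall to GD50 in Meishan only. From GD15 to GD26 in Meishan, 5 of the 6 tested members rose and 0 fell, where 23.8% of all probe sets rose and 27.1% fell. From GD26 to GD50 in Meishan, 5 of 6 fell and 0 rose, where 8.20% of all probe sets rose and 10.2% fell. In Yorkshire, 5 rose and 1 fell in the first step, where 20.3% of all probe sets rose and 44.9% fell. In the second step 4 fell and 1 rose, with 5.72% of all probe sets rising and 7.85% falling. The median change of the 6 members was 2.11 and then -1.57 in Meishan and 2.06 and then -1.19 in Yorkshire, beside medians over all tested probe sets of -0.06 and -0.02 in Meishan and -0.47 and -0.07 in Yorkshire. Both steps of a breed use the same GD26 arrays, so a high GD26 value enters the rise and the fall alike.

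**Figure D1:**
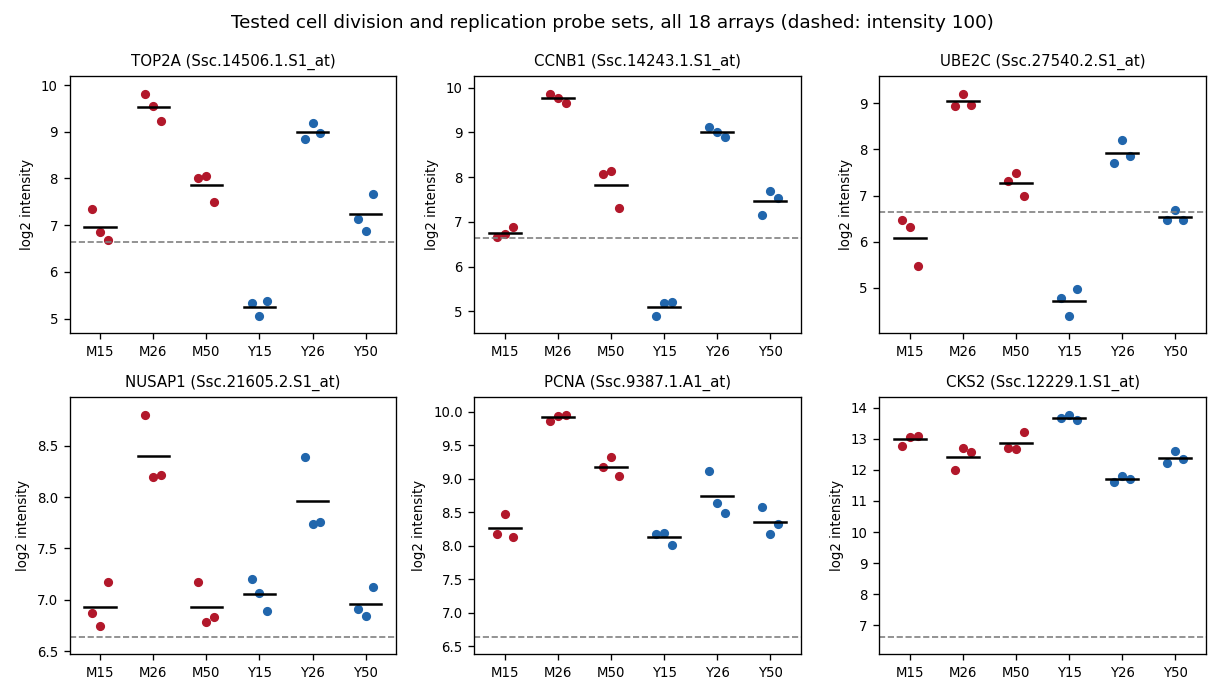
Log2 intensity (vertical axes) of the 6 tested member probe sets on the 18 arrays, by group (M Meishan in red, Y Yorkshire in blue, followed by the gestational day); points are arrays, black bars are group means of 3 arrays and the dashed line is intensity 100. In the panels of TOP2A, CCNB1, UBE2C, NUSAP1 and PCNA the GD26 arrays of each breed have the highest mean of that breed, and in the panel of CKS2 they have the lowest.

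TOP2A (Entrez gene 396917) encodes topoisomerase II alpha, which untangles DNA during replication and chromosome segregation. Its log2 intensity was 7.36, 6.85 and 6.68 on the Meishan GD15 arrays, 9.82, 9.55 and 9.22 on GD26, and 8.02, 8.05 and 7.50 on GD50. In Yorkshire it was 5.33, 5.06 and 5.38 on GD15, 8.84, 9.18 and 8.98 on GD26, and 7.14, 6.88 and 7.67 on GD50. The days did not overlap in either breed, the GD15 arrays were the lowest, and those of Yorkshire were all under 100. In Meishan it rose by 2.57 ± 0.23 from GD15 to GD26 (limma, adjusted p = 1.84e-05) and fell by 1.68 ± 0.23 to GD50 (adjusted p = 0.00123). In Yorkshire it rose by 3.74 ± 0.22 (adjusted p = 1.00e-06), at least 5.12-fold when the undetected GD15 group is placed at 100, and fell by 1.77 ± 0.22 (adjusted p = 9.96e-04). On GD50 it was still above GD15, by 0.89 ± 0.23 in Meishan and by at least 1.50-fold in Yorkshire. As geometric mean intensities the order of the groups was Meishan GD26 (740), Yorkshire GD26 (512), Meishan GD50 (231), Yorkshire GD50 (150), Meishan GD15 (125) and Yorkshire GD15 (38.2). The GD26 groups of the breeds were not distinguished by the limma test (adjusted p = 0.0672), and the arrays of Yorkshire GD50 overlapped those of Meishan GD50 and of Meishan GD15.

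CCNB1 (Entrez gene 397662) encodes cyclin B1, the cyclin that activates CDK1 at entry into mitosis. The Meishan arrays gave 6.67, 6.73 and 6.88 on GD15, 9.87, 9.77 and 9.65 on GD26, and 8.07, 8.13 and 7.30 on GD50. The Yorkshire arrays gave 4.90, 5.19 and 5.21, then 9.13, 9.01 and 8.90, then 7.15, 7.68 and 7.54. Again no 2 days of a breed overlapped, and CCNB1 was not detected on Yorkshire GD15. The rise was 3.00 ± 0.21 in Meishan (limma, adjusted p = 3.59e-06) and 3.91 ± 0.19 in Yorkshire (adjusted p = 2.50e-07), the latter at least 5.17-fold. By GD50 it had fallen by 1.93 ± 0.21 and 1.56 ± 0.19, and it remained 1.07 ± 0.21 above GD15 in Meishan and at least 1.76-fold above it in Yorkshire. The group means ran from 9.76 in Meishan GD26 through 9.01 in Yorkshire GD26, 7.83 in Meishan GD50, 7.46 in Yorkshire GD50 and 6.76 in Meishan GD15 to 5.10 in Yorkshire GD15, and the GD50 arrays of the breeds overlapped.

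UBE2C (Entrez gene 100153133) encodes the ubiquitin-conjugating enzyme that works with the anaphase-promoting complex to mark mitotic cyclins for destruction. Its tested probe set was at 6.46, 6.32 and 5.47 on Meishan GD15, 8.95, 9.21 and 8.96 on GD26, and 7.32, 7.49 and 6.99 on GD50. On Yorkshire GD15 it was at 4.78, 4.39 and 4.96, on GD26 at 7.72, 8.20 and 7.85, and on GD50 at 6.46, 6.69 and 6.46. GD15 was therefore under 100 on all arrays of both breeds, and Yorkshire GD50 was detected on 1 of 3. From GD15 to GD26 UBE2C rose at least 5.27-fold in Meishan and at least 2.42-fold in Yorkshire, with fitted changes of 2.96 ± 0.25 and 3.21 ± 0.20 (limma, adjusted p = 1.29e-05 and 1.48e-06). It then fell by 1.78 ± 0.25 and 1.38 ± 0.20. The other UBE2C probe set was under 100 throughout, at 2.18 to 5.13.

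NUSAP1 (Entrez gene 106509022) encodes a protein that bundles the microtubules of the mitotic spindle. The tested probe set was detected on all 18 arrays, with 6.87, 6.75 and 7.18 on Meishan GD15, 8.80, 8.20 and 8.21 on GD26, and 7.17, 6.79 and 6.83 on GD50. Yorkshire gave 7.21, 7.07 and 6.89, then 8.38, 7.74 and 7.75, then 6.91, 6.85 and 7.12. GD26 stood above the other days without overlap in both breeds, while GD15 and GD50 overlapped. It rose by 1.47 ± 0.20 in Meishan and 0.90 ± 0.21 in Yorkshire (limma, adjusted p = 2.50e-04 and 0.00424) and fell by 1.47 ± 0.20 and 1.00 ± 0.21 (adjusted p = 0.00116 and 0.0142). Between GD15 and GD50 the difference was 0.00 in Meishan, with a 95% interval from -0.45 to 0.45, and -0.09 in Yorkshire, with an interval from -0.57 to 0.38. The second NUSAP1 probe set was under 100 on all arrays but was also at its highest on GD26, at 5.84 to 6.08 in Meishan and 4.95 to 5.60 in Yorkshire, against 2.42 to 3.09 and 2.18 to 2.80 on GD15.

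PCNA (Entrez gene 692192) encodes the sliding clamp that holds DNA polymerase on the template. It was detected on every array, with 8.18, 8.48 and 8.13 on Meishan GD15, 9.86, 9.94 and 9.96 on GD26, and 9.18, 9.32 and 9.05 on GD50. The Yorkshire values were 8.17, 8.19 and 8.01, then 9.11, 8.64 and 8.49, then 8.58, 8.18 and 8.33. The Meishan days were fully separated, whereas in Yorkshire the GD26 and GD50 arrays overlapped. PCNA rose by 1.65 ± 0.14 in Meishan (limma, adjusted p = 1.22e-05) and by 0.62 ± 0.20 in Yorkshire (adjusted p = 0.0215). The Yorkshire rise depended on single arrays. Leaving out replicate 1 or 3 of Yorkshire GD15 gave an adjusted p of 0.0513 and 0.0726, and leaving out replicate 1 of Yorkshire GD26 gave 0.0505, whereas with the arrays centred the rise was 1.02 ± 0.16 (adjusted p = 4.19e-04). In Meishan PCNA fell by 0.73 ± 0.14 to GD50 (adjusted p = 0.00644) and stayed 0.92 ± 0.14 above GD15. In Yorkshire the change to GD50 was -0.38 ± 0.20 and did not pass the test (adjusted p = 0.238).

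CKS2 (Entrez gene 100520933) encodes a small protein that binds cyclin-dependent kinases. Its values were 12.78, 13.07 and 13.08 on Meishan GD15, 12.00, 12.69 and 12.58 on GD26, and 12.70, 12.67 and 13.21 on GD50. The Yorkshire arrays gave 13.65, 13.77 and 13.60, then 11.60, 11.81 and 11.72, then 12.21, 12.60 and 12.36. Yorkshire GD15 was the highest group and Yorkshire GD26 the lowest, and neither overlapped another group. CKS2 fell by 1.96 ± 0.16 from GD15 to GD26 in Yorkshire (limma, adjusted p = 8.15e-06), by 1.57 ± 0.20 with the arrays centred, and the Meishan change of -0.55 ± 0.22 did not pass the test (adjusted p = 0.0588). That change did pass under quantile normalization (-0.67, adjusted p = 0.0254), with a mean-variance trend (0.0366), with 1 fit over both breeds (0.0291), with the replicate block (0.0299), and without replicate 2 of Meishan GD26 or replicate 3 of Meishan GD50 (0.0460 and 0.0465). From GD26 to GD50 it rose by 0.68 ± 0.16 in Yorkshire (adjusted p = 0.0247). That call was lost, at adjusted p of 0.0501 to 0.0565, when replicate 2 of Yorkshire GD15, replicate 3 of GD26, or replicate 2 or 3 of GD50 was left out. The Meishan change in that step was 0.43 ± 0.22 (adjusted p = 0.210).

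**Figure D2:**
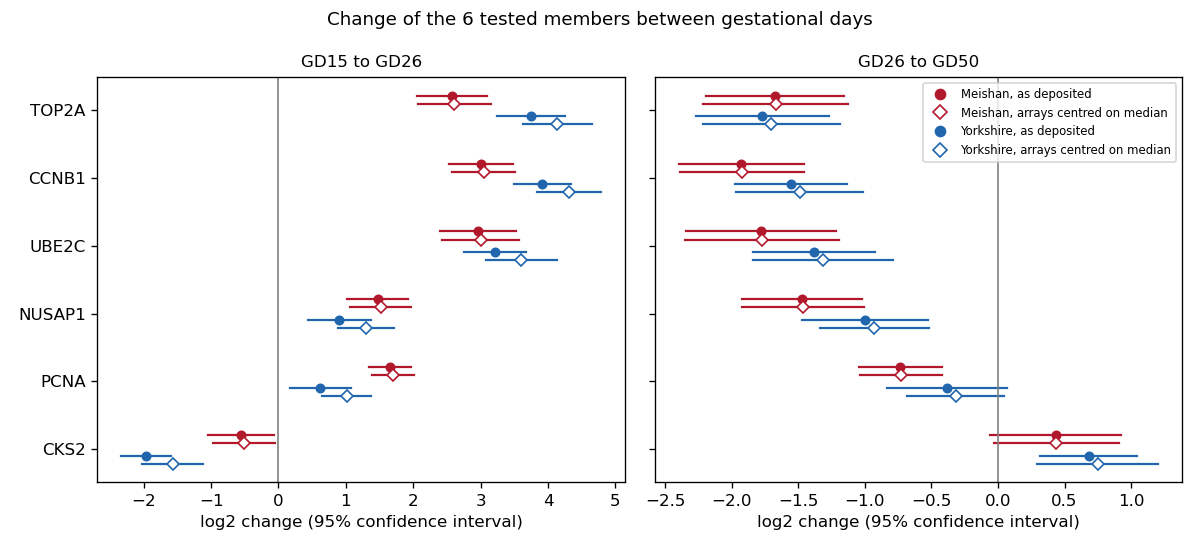
Log2 change (horizontal axes) of the 6 tested members from GD15 to GD26 and from GD26 to GD50, for Meishan in red and Yorkshire in blue; filled circles are the deposited values, open diamonds the values after centring each array on its median, and lines are 95% confidence intervals of limma. Centring moves the Yorkshire first step to the right, CKS2 from -1.96 to -1.57 and PCNA from 0.62 to 1.02, and leaves the Meishan values nearly in place.

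Over the 18 arrays the profiles of TOP2A, CCNB1 and UBE2C ran closely together, with Pearson r of 0.98 for TOP2A with CCNB1, 0.98 for TOP2A with UBE2C and 0.97 for CCNB1 with UBE2C. NUSAP1 and PCNA correlated with these 3 at 0.71 to 0.85. CKS2 correlated negatively with each of the other 5, from -0.37 with PCNA to -0.81 with TOP2A. These are descriptions over 18 arrays that share breeds, days and the lower signal of 6 arrays.

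On GD50 compared with GD15, 4 members were higher and 0 lower in Meishan, where 23.0% of all probe sets were higher and 28.9% lower. The 4 were TOP2A, CCNB1, UBE2C and PCNA. In Yorkshire 3 were higher and 1 lower, where 19.5% of all probe sets were higher and 47.0% lower. TOP2A, CCNB1 and UBE2C were higher and CKS2 was lower, by -1.28 ± 0.16, and PCNA, at 0.24 ± 0.20 as deposited, became higher with the arrays centred (0.70 ± 0.16, limma, adjusted p = 0.00409). UBE2C stayed detected on only 1 of the 6 arrays in that Yorkshire comparison, and its difference was 0.02 with undetected values set to 100.

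The remaining members were near or under the limit. The highest values of BIRC5, of DEPDC1B and of the MCM4 probe set named by the study again fell on Meishan GD26, and those of the platform MCM4 probe sets did not. BIRC5 (Entrez gene 397266) encodes survivin, a subunit of the chromosomal passenger complex that corrects spindle attachment. Its platform probe set was at 7.67, 7.70 and 7.83 on Meishan GD26, against 5.77, 5.47 and 5.04 on GD15 and 6.09, 6.68 and 5.92 on GD50. On Yorkshire GD26 it was at 6.94, 6.38 and 5.68, so 1 of 3 arrays was above 100, and GD15 and GD50 of that breed were not detected. The probe set that the study names BIRC5 passed 100 on the 3 Meishan GD26 arrays alone, at 7.25, 6.73 and 6.93, with 5.18 to 5.23 on Yorkshire GD26. Both BIRC5 probe sets therefore had their maximum in the same group.

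MCM4 (Entrez gene 100156398) encodes a subunit of the helicase that is loaded at origins before replication. The probe set that the study names MCM4 was at 7.80, 7.47 and 7.65 on Meishan GD26 and at 5.99, 6.69 and 6.83 on Yorkshire GD26, so it was detected on 3 and on 2 arrays. On the other 12 arrays it was under 100, at 4.91 to 5.55 on Meishan GD15, 5.78 to 6.31 on Meishan GD50, 4.66 to 4.84 on Yorkshire GD15 and 4.07 to 4.66 on Yorkshire GD50. The 2 probe sets with the platform symbol MCM4 were detected on no array, at 2.18 to 4.47, and had their highest means on Yorkshire GD26 and Yorkshire GD50. All 3 lie within 1 probe set cluster of the array by their identifiers, and they did not report the same signal. DEPDC1B, a gene with a DEP and a RhoGAP-like domain that acts in mitotic de-adhesion, was detected by the probe set of the study on the 3 Meishan GD26 arrays, at 6.84, 7.27 and 6.93, and on none of the other 15. Yorkshire GD26 was at 5.74, 6.25 and 5.39, and GD15 of the 2 breeds was at 3.21 to 4.52.

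With the filter lowered to 3 arrays above 100, these 4 probe sets entered the fit, although they passed only because of the group where they were high, so their number is not counted as evidence. In Meishan the rise to GD26 was at least 2.12-fold for BIRC5 (platform probe set), at least 1.99-fold for MCM4 and at least 1.29-fold for DEPDC1B. The fitted decreases from GD26 to GD50 were 1.50 ± 0.23, 1.62 ± 0.20 and 1.71 ± 0.21 in the same order. On Meishan GD50, MCM4 and DEPDC1B were under 100 on all arrays, and BIRC5 was above it on 1 of 3. The filter favours probe sets that are high on GD26, so these decreases are a description and not a test. In Yorkshire the fitted changes to GD26 were 1.37 ± 0.31, 1.79 ± 0.26 and 1.91 ± 0.52, from GD15 groups that were not detected.

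**Figure D3:**
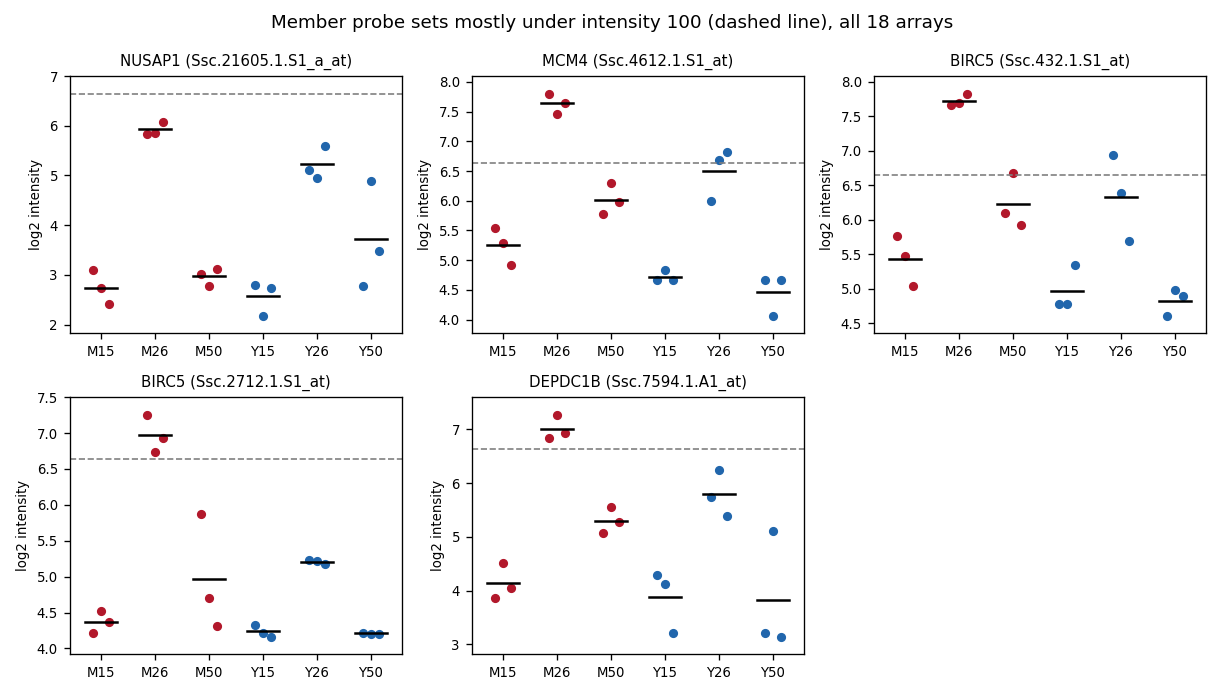
Log2 intensity (vertical axes) on the 18 arrays of the second NUSAP1 probe set, the MCM4 and DEPDC1B probe sets named by the study and both BIRC5 probe sets; points are arrays (M Meishan in red, Y Yorkshire in blue, followed by the day), black bars are means of 3 arrays and the dashed line is intensity 100. Meishan GD26 has the highest mean in every panel shown, and apart from 1 BIRC5 array of Meishan GD50 the arrays above the line belong to GD26. Not shown are the second UBE2C probe set and both platform MCM4 probe sets. They were detected on no array, and their highest means were in Yorkshire.

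Between the breeds, on GD26 and GD50, PCNA on both days and UBE2C on GD26 differed with the deposited and with the centred values. Large shares of all probe sets differed on these days too, as given below. The GD15 calls also held with centring, but they rest on undetected values or, for CKS2, on single arrays. On GD15, 3 members were lower in Yorkshire and 1 was higher, where 4.92% of all probe sets were higher and 4.87% lower, and the median of all probe sets (-0.02) was near 0. TOP2A and CCNB1 were lower in Yorkshire, where they were not detected, by at least 1.25-fold and at least 1.08-fold (fitted differences -1.70 ± 0.23 and -1.66 ± 0.20, limma, adjusted p = 1.54e-04 and 4.71e-05). With undetected values set to 100, neither difference passed the test (-0.32 and -0.12, adjusted p = 0.447 and 0.826). UBE2C had a fitted difference of -1.37 ± 0.24, but neither breed was detected. CKS2 was higher in Yorkshire by 0.70 ± 0.19 (adjusted p = 0.0294), a call that was lost in 5 of the 6 fits that left out 1 GD15 array, at adjusted p of 0.0594 to 0.118. NUSAP1 and PCNA overlapped between the breeds, at 0.13 ± 0.21 and -0.14 ± 0.17.

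On GD26, 4 members were lower in Yorkshire and 0 higher, where 10.7% of all probe sets were higher and 42.5% lower. The deposited differences were -1.17 ± 0.17 for PCNA, -1.12 ± 0.24 for UBE2C, -0.75 ± 0.20 for CCNB1 and -0.71 ± 0.19 for CKS2. After centring the arrays, PCNA (-0.82 ± 0.14, limma, adjusted p = 2.35e-04) and UBE2C (-0.77 ± 0.26, adjusted p = 0.0253) were still lower, and CCNB1 (-0.40 ± 0.21) and CKS2 (-0.36 ± 0.21) no longer passed. With that centring, 19.1% of all probe sets were higher and 22.2% lower. The Yorkshire arrays lay below all Meishan arrays for PCNA, UBE2C, CCNB1, CKS2 and TOP2A as deposited, and NUSAP1 overlapped. The share of all probe sets that separate in this way was not counted. The median difference of all probe sets was -0.42, so this separation is not read as a result about the members. BIRC5, MCM4 and DEPDC1B were not compared between the breeds, since 3 of the 5 BIRC5 arrays above 100 (platform probe set), 3 of the 5 of MCM4 and all 3 of DEPDC1B were those of Meishan GD26.

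On GD50, 3 members were lower in Yorkshire and 0 higher, where 10.9% of all probe sets were higher and 45.6% lower. They were PCNA (-0.82 ± 0.17), UBE2C (-0.73 ± 0.24) and TOP2A (-0.62 ± 0.23), and after centring only PCNA passed (-0.41 ± 0.14, limma, adjusted p = 0.0260). With that centring, 20.9% of all probe sets were higher and 22.6% lower. Both counts of lower members lie near the share of all probe sets. The TOP2A arrays of the breeds overlapped, and its call was lost without Meishan GD50 replicate 1 or 2 or Yorkshire GD50 replicate 1 or 2 (adjusted p = 0.0814 to 0.141). UBE2C lost its call without Meishan GD50 replicate 2 (adjusted p = 0.0675). CCNB1 differed by -0.38 ± 0.20 as deposited and by 0.04 ± 0.21 after centring.

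The size of the first step also differed between the breeds, by the test of the difference itself. From GD15 to GD26, 2 members changed more positively in Yorkshire and 2 more negatively, where 8.70% of all probe sets did so in the positive and 26.8% in the negative direction. PCNA rose less in Yorkshire, by -1.03 ± 0.24 as deposited and by -0.68 ± 0.20 after centring (limma, adjusted p = 0.00396 and 0.0177). CKS2 differed by -1.41 ± 0.27 and by -1.06 ± 0.30 after centring (adjusted p = 0.00128 and 0.0147). TOP2A and CCNB1 had larger fitted rises in Yorkshire, by 1.17 ± 0.33 and 0.91 ± 0.28. Those 2 values rest on Yorkshire GD15 levels under 100, and with undetected values set to 100 they turned to -0.21 and -0.63 (adjusted p = 0.620 and 0.0669). The CCNB1 call was also lost without Yorkshire GD15 replicate 1 (0.81, adjusted p = 0.0571). From GD26 to GD50, 0 members differed in either direction, where 2.05% of all probe sets did in the positive and 2.32% in the negative direction. The 6 values of that difference ran from -0.09 for TOP2A, with a 95% interval from -0.80 to 0.61, to 0.48 for NUSAP1, with an interval from -0.15 to 1.10.

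RNA of the conceptus was present in the samples, and its level was set beside the members. Of 25 trophoblast and placenta markers, 14 are on the array. Their summed intensity was 632 to 906 on the GD15 arrays, 42778 to 94973 on GD26 and 50434 to 93664 on GD50, and PLET1, DPPA5, PAG6 and PPAG3, all under 100 on GD15, had group means of 1339 to 31191 on GD26 and GD50. Of the 10 tested markers, 8 rose to GD26 in each breed and 0 fell. By GD50 another 3 rises and 0 falls followed in Meishan, where 5 members fell, and 0 rises and 3 falls followed in Yorkshire, where 4 members fell. The mean log2 level of the 14 markers was 8.91 in Meishan and 9.12 in Yorkshire on GD26, and 8.54 and 8.35 on GD50. On GD26, 4 members were lower in Yorkshire, or 2 with the arrays centred, where 42.5% of all probe sets were lower as deposited and 22.2% with the arrays centred. Stromal and smooth muscle markers also moved in the first step: 5 of the 8 tested rose in each breed, with 0 falling in Meishan and 1 in Yorkshire, and in the second step 2 fell in Meishan and 1 in Yorkshire. Of 5 tested endothelial markers, 2 rose to GD26 in each breed, with 0 falling in Meishan and 1 in Yorkshire, and to GD50 3 fell in Meishan and 1 in Yorkshire. On GD26, 3 of the 5 were lower and 1 higher in Yorkshire than in Meishan, and the summed intensity of the 8 on the array was 3597 to 4121 in Meishan and 3173 to 3478 in Yorkshire. Leukocyte markers were low throughout: 1 or 2 of the 12 were above 100 on all arrays of a group, and CD3D, CD3E, CD4 and PTPRC were under 100 in the mean of every group. The part of these cell types in the members' changes was not tested.

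**Figure D4:**
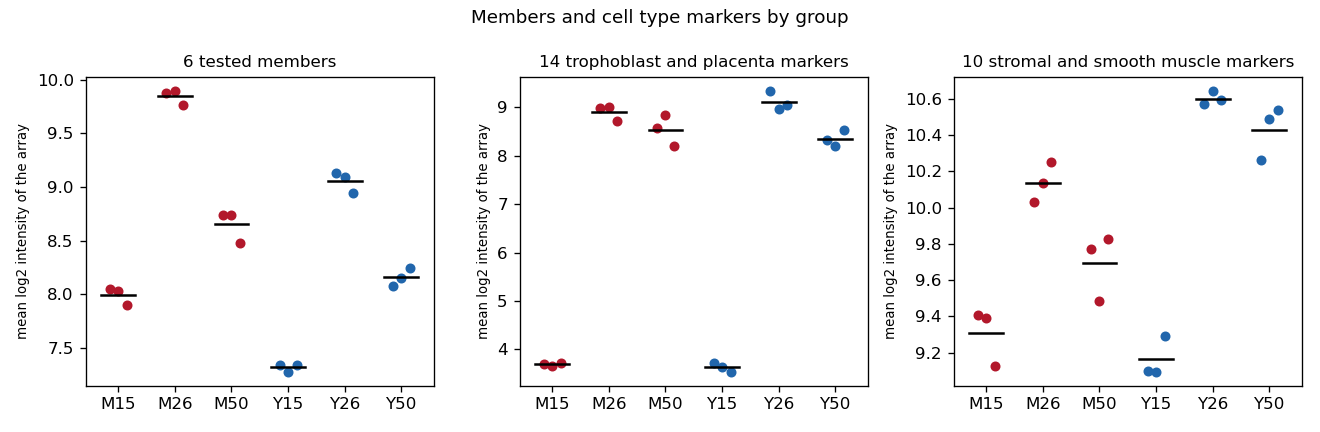
Mean log2 intensity of each array (vertical axes) over the 6 tested members, 14 trophoblast and placenta markers and 10 stromal and smooth muscle markers, by group (M Meishan in red, Y Yorkshire in blue, followed by the day); points are arrays and black bars are means of 3 arrays. From GD26 to GD50 the member mean is lower in both breeds, and the trophoblast mean is lower too, at 8.54 against 8.91 in Meishan and at 8.35 against 9.12 in Yorkshire. Of the 10 trophoblast and placenta markers that were tested, 3 rose and 0 fell in Meishan in that step, with a median change of 0.10. In Yorkshire 0 rose and 3 fell, with a median of -0.46.

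The other genes of the cell cycle were taken from lists of 167 non-member genes other than inhibitors, of which 81 are on the array and 35 passed the filter. In Meishan 15 of the 35 rose and 7 fell from GD15 to GD26, and 1 rose and 13 fell to GD50, with medians of 0.25 and -0.35. In Yorkshire 7 rose and 16 fell in the first step, or 10 and 14 with the arrays centred, and 0 rose and 5 fell in the second, with medians of -0.55 and -0.22. The shares of all probe sets and their medians are those given above for the members, except that with the arrays centred 29.0% of all probe sets rose and 30.7% fell in the Yorkshire first step.

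Genes of the spindle and of cytokinesis rose in Meishan in 5 of 6 cases in the first step with NUSAP1 included, and 1 fell. In Yorkshire 2 of the 6 rose and 1 fell, or 3 and 1 with the arrays centred. RACGAP1, which with its partner kinesin positions the cleavage furrow, rose by 2.73 in Meishan and at least 3.58-fold in Yorkshire, where GD15 was under 100, and fell by 0.76 and 0.76 to GD50. MAD2L1, a spindle checkpoint protein, rose by 1.33 in Meishan and NUF2, a kinetochore protein, by 1.07, and in Yorkshire their changes of -0.68 and 0.04 did not pass. STMN1, which destabilises microtubules, fell in both breeds, by 1.27 and 1.36. Among the genes of mitotic entry, WEE1, an inhibitory kinase of CDK1, rose at least 3.87-fold in Meishan and at least 1.60-fold in Yorkshire, where GD15 was under 100, and then fell by 1.34 in Meishan and at least 1.60-fold in Yorkshire, where GD50 was under 100. CDC25B, the phosphatase that opposes WEE1, fell by 1.52 and 1.03 in the first step. CKS1B, the paralogue of CKS2, fell in Yorkshire by 1.09, and its Meishan change of 0.25 did not pass.

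Of the 6 tested genes of chromosome condensation and cohesion, TOP2A included, 4 rose and 0 fell in Meishan in the first step, and 5 fell and 0 rose in the second. In Yorkshire 3 rose and 1 fell in the first step, or 4 and 1 with the arrays centred, and 3 fell and 0 rose in the second. PTTG1, securin, rose by 1.21 in Meishan and at least 1.10-fold in Yorkshire, and LMNB1, a lamin of the nuclear envelope, by 1.41 in Meishan and at least 1.69-fold in Yorkshire. To GD50 LMNB1 fell by 1.71 in Meishan and at least 1.69-fold in Yorkshire, and PTTG1 by 1.63 in Meishan. HMGB2, a chromatin protein, fell by 1.50 in Meishan in the second step and by 1.36 and 1.11 in the 2 steps in Yorkshire. In the list of the anaphase-promoting complex, 1 of 8 rose in the first step in each breed and this was UBE2C itself, while 2 fell in Meishan and 5 in Yorkshire. ANAPC5 fell by 1.88 and 1.67, and CDC23, another subunit, fell at least 1.46-fold in Yorkshire, where it was under 100 on GD26.

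The replication genes were mixed. Of 9 tested genes of DNA synthesis, PCNA included, 4 rose and 2 fell in Meishan and 3 rose and 4 fell in Yorkshire. POLD3, a subunit of DNA polymerase delta, rose at least 1.67-fold and at least 1.04-fold from GD15 levels under 100, and FEN1, the flap endonuclease, rose by 0.94 and 0.95. RPA1, RPA2 and RPA3, which coat single-stranded DNA, fell in Yorkshire by 1.30, 1.83 and 1.69. With the arrays centred these changes were -0.90, -1.44 and -1.30. Of these genes RPA3 alone fell in Meishan, by 0.43. Of 13 licensing genes on the array only GMNN, ORC4 and ORC6 passed the filter. ORC6 rose by 1.00 in Meishan and fell at least 1.73-fold in Yorkshire, and GMNN, the inhibitor of licensing, fell by 1.45 in Yorkshire. CCND2, a cyclin of G1, was under 100 on GD15 in both breeds and rose at least 2.84-fold in Meishan and at least 1.33-fold in Yorkshire.

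The cell cycle inhibitors did not move 1 way. Of 10 tested, 4 rose and 5 fell in Meishan from GD15 to GD26, and 1 rose and 6 fell in Yorkshire, or 3 and 5 with the arrays centred. Among all these lists, centring ended the Yorkshire first-step falls of ANAPC13, ORC4 and GADD45B, and with it BUB3, LIG1, H2AFZ, CDKN1A and TOB1 passed as rises. CDKN3, a phosphatase of CDK2 that is itself transcribed in cycling cells, rose by 1.81 and then fell by 1.26 in Meishan. CDKN1B, which encodes p27, fell by 0.98 in Meishan and 2.08 in Yorkshire, and GADD45A fell by 1.12 and 2.32. BTG2 rose by 0.76 and 1.80. TOB1 fell by 1.99 in Meishan, and GADD45G fell at least 3.43-fold and then rose at least 2.95-fold in Yorkshire, where it was under 100 on GD26.

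**Figure D5:**
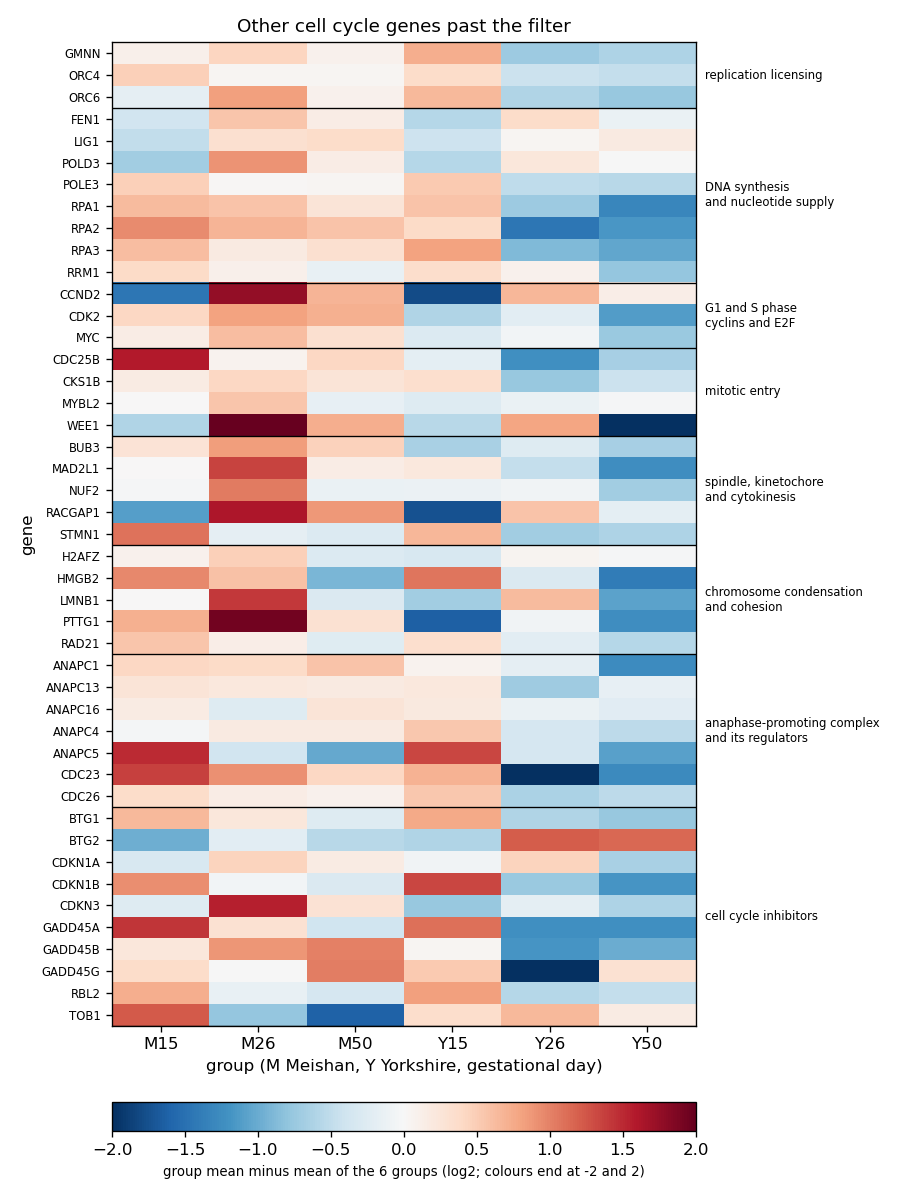
Group means of the non-member cell cycle genes past the filter (rows, grouped by list), shown as the log2 difference from the mean of the 6 groups; columns are the groups (M Meishan, Y Yorkshire, followed by the day), and colours end at -2 and 2. RACGAP1, CCND2 and WEE1 have their highest mean on GD26 in both breeds, and many genes of the APC and replication lists are lowest on Yorkshire GD26 or GD50.

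A further 9 genes of these lists were above 100 on 3 to 5 arrays and so were not tested: CCNB2, CDC20, DLGAP5, MELK, AURKB, RRM2, CDC45, RFC3 and SMC4. For 7 of the 9 (77.8%) the arrays above 100 included all 3 of Meishan GD26, which was the case for 9.08% of the 958 probe sets with 3 to 5 arrays above 100. CCNB2, the second B-type cyclin, was at 7.45 ± 0.19 on Meishan GD26, and it was under 100 on every other array. MELK, a mitotic kinase, was at 7.90 ± 0.12, and DLGAP5, a spindle protein, at 7.63 ± 0.18 on Meishan GD26. CDC20, the activator of the anaphase-promoting complex, was at 7.23 ± 0.19 there and under 100 on the other 15 arrays. RRM2, the regulated subunit of ribonucleotide reductase, was at 7.54 on Meishan GD26 and 6.97 on Yorkshire GD26. AURKB was at 6.67 and 6.50 on GD26 of the breeds in that order, and SMC4 at 6.91 in both. In Yorkshire CDC45 and RFC3 went the other way. CDC45 was at 6.03 on GD15 and 4.87 on GD26, and RFC3 at 6.64 and 5.22.

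Among 5240 candidate probe sets with 1 symbol, the 10 whose profile was most like the mean profile of the 6 tested members had Pearson r of 0.94 to 0.96 over the 18 arrays. They were probe sets of FKBP9, KPNA2 (with 2 probe sets), LMNA, RND3, PCLAF, CFL2, VCL, RACGAP1 and EAF2. FKBP9 was the closest (r = 0.96), with group means of 9.60, 11.11 and 10.13 in Meishan and 9.33, 10.49 and 9.78 in Yorkshire on the 3 days in order. PCLAF, the PCNA-associated factor (r = 0.95), had 6.42, 9.96 and 7.91 in Meishan and 5.22, 8.53 and 7.52 in Yorkshire. Only RACGAP1 is in the cell cycle lists, and 8 of the 10 were among the closest 10 after centring the arrays and 7 when CKS2 was left out of the profile.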

How the data were processed

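RNA was measured on 18 Affymetrix porcine arrays, 3 for each of 6 groups. The authors made the deposited log2 values from the scanned intensities with GCRMA (the submitters' notes also name RMA), so the background correction could not be varied here, and other scalings start from values already normalized. Array number limits the precision. In the present analysis, the 9320 pig probe sets that exceeded 100 in 6 arrays or more were fitted with limma 3.58.1 in R 4.3.3 (lmFit, eBayes), per breed for days and in a 6-group fit for breeds, with Benjamini-Hochberg adjustment. The methods of the study also filter before the fit and require a fold change of at least 2. They name Bonferroni and false discovery rate adjustment, so each was tried with that fold change. Scripts were tested on simulated data. Figures were drawn with matplotlib 3.10.9.

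A lower bound ("at least") sets a group that was under 100 on all its arrays at 100. Genes were named by the platform annotation. Named were all members, up to 4 non-members per cell cycle list, by the size of their significant change, the leading markers of each cell type, and the 10 probe sets most alike, besides the 9 list genes detected on 3 to 5 arrays and a few further genes chosen after their values were seen (ESR1, PGR and CD markers, and list genes beyond the first 4). A gene with several probe sets was counted by the brightest. Members and lists were chosen with earlier results of these data known. Alternatives tried were filters, floor, centring, quantile normalization, mean-variance trend, a joint fit, the replicate block and leaving out each array. No probe sequences were used here.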

Additional observations from a re-analysis of the deposited data

Results flagged for a closer look

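For 4 members the change from GD15 to GD26 differed between the breeds by the test of the difference itself (limma, 6-group fit, Yorkshire minus Meishan). The difference was -1.41 for CKS2, which fell in Yorkshire on all 3 arrays against GD15, and -1.03 for PCNA, which rose less in Yorkshire. It was 1.17 for TOP2A and 0.91 for CCNB1, whose Yorkshire GD15 arrays were all under intensity 100, and both turned negative with undetected values set to 100. After centring each array the values were -1.06, -0.68, 1.53 and 1.26 in the same order. The Yorkshire GD26 arrays are among those with lower medians, and with Yorkshire GD26 taken from array 1 alone, an alternative chosen after seeing the data, the values were 1.01 for TOP2A, 1.03 for CCNB1 and -0.67 for PCNA, and none of these 3 passed the test (adjusted p = 0.0973, 0.0548 and 0.0678).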

How the results depend on the processing

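The rise of TOP2A, CCNB1, UBE2C and NUSAP1 to GD26 and their fall to GD50 passed the test in both breeds under every filter, scaling and left-out array tried, and stopped passing for some of them only under the 2 rules that also ask for a fold change of at least 2. With the Benjamini-Hochberg adjustment and that fold change, a rule added after seeing the data, NUSAP1 was not called in Yorkshire, and the number of members called was 2 for Meishan GD15 to GD50, 3 for Yorkshire GD26 to GD50, and 2 and 0 for the breed difference on GD26 and GD50. With the Bonferroni adjustment and the same fold change the number of members called was 1 for Meishan GD26 to GD50, 0 for Meishan GD15 to GD50, 0 for Yorkshire GD26 to GD50, 1 for Yorkshire GD15 to GD50, 2, 1 and 0 for the breed difference on GD15, GD26 and GD50, and 0 for the breed difference of the first step. With intensities under 100 set to 100, 1 member differed between breeds on GD15, and the first-step breed differences reversed to -0.21 for TOP2A and -0.63 for CCNB1. That of UBE2C, an uncalled 0.25 as deposited (limma, adjusted p = 0.579), became -1.12 (limma, adjusted p = 4.88e-04). UBE2C was under 100 on every GD15 array, so this value only repeats its GD26 breed difference. It cannot show whether the first step differed. Without a filter, 7 of 11 member probe sets differed between breeds on GD26, where 8.7% of all probe sets were higher and 19% lower. In the second-step breed difference 1 did, where 1.2% of all probe sets were higher and 0.988% lower. The 11 include probe sets that were under 100 on every array. Median centring left 2 breed calls on GD26 and 1 on GD50, where 22.2% and 22.6% of all probe sets were lower and 19.1% and 20.9% higher. Quantile normalization left 1 on GD50, where 26.8% of all probe sets were lower and 16.4% higher. With Yorkshire GD26 from array 1 alone, 1 first-step breed difference was called. Leaving out 1 array gave 3 to 5 calls for that difference, 2 to 4 for the breeds on GD50 and 5 to 6 for Meishan GD15 to GD26.

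Whether the replicate numbers pair the arrays is not settled. Of 18 same-number pairs of a breed, 7 correlated over 0.1 (range -0.14 to 0.33), and 10 of 18 arrays correlated best with their own number. The mean correlation was 0.06 for same-number pairs and -0.03 for the others. The replicate block gave 6 calls for Meishan GD15 to GD26 (CKS2 added, -0.55) and 4 for the breeds on GD50, and the other counts were as in the fit without it. The limits are the 2 gilts behind each group, the Yorkshire GD26 and GD50 arrays with lower medians, which cannot be told apart from breed and day, and a detection limit that hides UBE2C on GD15 and BIRC5, MCM4 and DEPDC1B in most groups.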
